A study of Mus musculus with 12 samples.

Results

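The genes described here are 10 components of WNT signalling, namely the ligand Wnt5a, the receptors Fzd1 and Fzd2, the secreted antagonists Sfrp1, Sfrp2, Dkk1 and Dkk3, the feedback inhibitor Axin2 and the nuclear factors Lef1 and Tcf7. They were chosen by name, with earlier results of these data known. Probe sets were taken where the array annotation named exactly 1 of these genes. Of the 10 genes, 9 were found, with 23 probe sets among 18193 named genes on the array, and Tcf7 was not analysed here. Each of the 9 was represented by its probe set with the highest mean log2 level over all arrays, and all 9 were among the 13145 genes tested.

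The series followed mouse embryonic stem (ES) cells along a guided route to cardiomyocytes, with RNA from 4 stages measured on whole-genome oligonucleotide arrays, 3 arrays per stage and 12 in all. ES-LIF(+) were CGR8 ES cells kept with the cytokine LIF, which holds them undifferentiated, and ES-LIF(-) were the same cells after LIF was withdrawn. CP were cardiopoietic cells, the cardiac progenitor stage, and CM were cardiomyocytes. Both were obtained from the same ES line with a cocktail of growth factors and interleukins, BMP and TGF-beta among them, and enriched on density gradients. By the methods, CP were then kept in low serum with TNF-alpha, and CM in higher serum. All 4 groups thus derive from 1 cell line, which limits them as a model, and the methods describe the 3 arrays of a stage as independent samples. CP and CM differ from ES-LIF(+) in time, culture medium and purification as well as in stage, and from each other in time and medium. These differences cannot be told apart.

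WNT ligands are secreted, lipid-modified proteins that bind Frizzled (Fzd) receptors. In the canonical branch, receptor engagement stops the destruction complex, which holds Axin, from degrading beta-catenin, and beta-catenin then partners TCF and LEF factors on DNA. Secreted antagonists act outside the cell: Sfrp proteins carry a Frizzled-like domain that binds WNTs, and Dkk1 blocks the Lrp5 and Lrp6 coreceptors. In the heart, WNT signals favour mesoderm early and are damped when cardiac progenitors form, while Wnt5a typically works through branches that do not need beta-catenin.

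Because TCF and LEF factors read a short DNA word, the upstream sequence of the members is shown with that word in capitals. The words searched were CTTTGAT or CTTTGAA or CTTTGTA or CTTTGTT, on both strands, in windows of 300 bases that ran from 250 before to 50 after each RefSeq start (build GRCm38.p6). Windows were held for 6 of the 10 genes (Sfrp2, Dkk1, Axin2, Lef1, Tcf7 and Fzd1), Lef1 with 4 starts and Tcf7 with 2, and 2 of these 10 windows had a match. Of all 32851 windows of mouse genes, 16.9% had one. Dkk1 had 2 matches, beginning 117 and 98 bases before its start, and 1 Lef1 start had a match 147 bases before it, where the word reads on the other strand. The Axin2 window is printed because Axin2 is the standard feedback target, and those letters were not in it. A match is a description of the letters and not a measured binding site.
Dkk1, chr19:30549497-30549746, minus strand: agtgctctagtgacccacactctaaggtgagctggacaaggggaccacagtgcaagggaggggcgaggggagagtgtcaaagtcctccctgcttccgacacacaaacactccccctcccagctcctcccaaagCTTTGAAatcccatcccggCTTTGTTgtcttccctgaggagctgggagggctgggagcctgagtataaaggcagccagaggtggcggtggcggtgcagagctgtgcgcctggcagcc
Lef1, chr3:131156044-131156293, plus strand: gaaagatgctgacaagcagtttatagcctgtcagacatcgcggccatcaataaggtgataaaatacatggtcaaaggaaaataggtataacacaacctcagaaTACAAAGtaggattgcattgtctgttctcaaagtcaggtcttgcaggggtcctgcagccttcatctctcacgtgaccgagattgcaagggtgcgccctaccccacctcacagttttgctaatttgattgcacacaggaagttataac
Axin2, chr11:108920099-108920348, plus strand: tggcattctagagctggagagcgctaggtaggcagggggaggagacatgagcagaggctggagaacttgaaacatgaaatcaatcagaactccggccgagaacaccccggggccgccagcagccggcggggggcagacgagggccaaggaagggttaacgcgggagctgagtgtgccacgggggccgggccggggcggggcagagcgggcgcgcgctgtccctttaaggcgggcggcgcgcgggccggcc

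The deposited value of a probe set is its signal, a background-corrected brightness on a linear scale, with every array scaled so that its trimmed mean was 496 or 497. Differences below are on the scale of log2(signal + 16), with the standard error (SE) of the limma fit, and p-values are Benjamini-Hochberg adjusted over all tested probe sets. A gene was called where its adjusted p was below 0.05 and its difference exceeded 1.5-fold. Levels of different genes are not compared, since probes differ in brightness. The median signal of an array was 101 to 110.9 in ES-LIF(+), 104.3 to 110.2 in ES-LIF(-), 128.9 to 136.3 in CP and 127.7 to 144.1 in CM, so centring arrays on their medians would lower each CP difference from ES-LIF(+) by 0.28 and each CM difference by 0.32. Arrays of a stage correlated at 0.960 to 0.967 across probe sets.

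The stage labels were checked against marker lists. The summed signal of 12 cardiomyocyte markers was 120700 to 133300 in CM, against 2306 to 2415 in CP and 967 to 1154 in ES-LIF(+). Against ES-LIF(+), all 12 rose in CM, whereas in CP 4 of the 12 rose and 1 fell. The 10 ES cell markers summed to 69280 to 75920 in CP, against 92270 to 95890 in ES-LIF(+), and 7 of the 10 fell. Their sum in ES-LIF(-) was 65400 to 70570, which overlapped CP. In CP against ES-LIF(-), 4 of the 10 were higher and 4 lower, so CP was not simply further from ES-LIF(+) than ES-LIF(-) was. A fibroblast and mesenchyme list of 13 genes, Col1a1 and Dcn among them, summed to 142500 to 155500 in CP and 84490 to 93340 in CM, against 11690 to 15190 in ES-LIF(+). All 13 of that list rose in both stages, and 7 of the 13 were below the array median on every ES-LIF(+) array, against 0 in CP or CM. Other lists had higher sums in the same stages. The 6 smooth muscle markers summed to 29800 to 34130 in CP and 60230 to 69310 in CM, against 4125 to 5355 in ES-LIF(+), the 10 extraembryonic endoderm markers to 41810 to 48240 in CP and 40330 to 45110 in CM, against 5484 to 7129, and the 8 mesothelial and epicardial markers to 13060 to 13230 in CP and 5981 to 7094 in CM, against 1829 to 3643. Of these lists, 5 of 6, 4 of 7 and 5 of 7 genes tested rose in CP, and 6 of 6, 5 of 7 and 5 of 7 in CM. Sparc made up most of the extraembryonic endoderm sum, with means of 40530 in CP and 38030 in CM. In each of these stages, 4 of the 10 genes of that list were below the array median on every array. Blood markers differed among the CM arrays, with sums of 968, 2998 and 18070. In cultures of mixed cells, a change in how many cells express a gene and a change in RNA per cell cannot be told apart, and the part of these other cell types in the results below was not tested.

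Across the stages, all 9 members passed the F test of the fit (adjusted p below 0.05), against 73.1% of the 13145 genes. In CP against ES-LIF(+), 7 members rose and 1 fell, beside 18.7% of all genes higher and 13.3% lower. In CM against ES-LIF(+), 6 rose and 0 fell, beside 25.7% higher and 23.9% lower. The median difference of the 9 members was 1.10 in CP and 1.35 in CM, against 0.04 and 0.06 over all genes. The members were chosen with earlier results of these data known. Wnt5a was below the array median on every ES array, and Dkk1 on 2 of 3 ES-LIF(+) and 3 of 3 ES-LIF(-) arrays. Both were therefore tested only through their CP and CM signals. These counts and medians describe the chosen members and are no test of WNT genes as a set. These comparisons share the 3 ES-LIF(+) arrays.

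**Figure D1:**
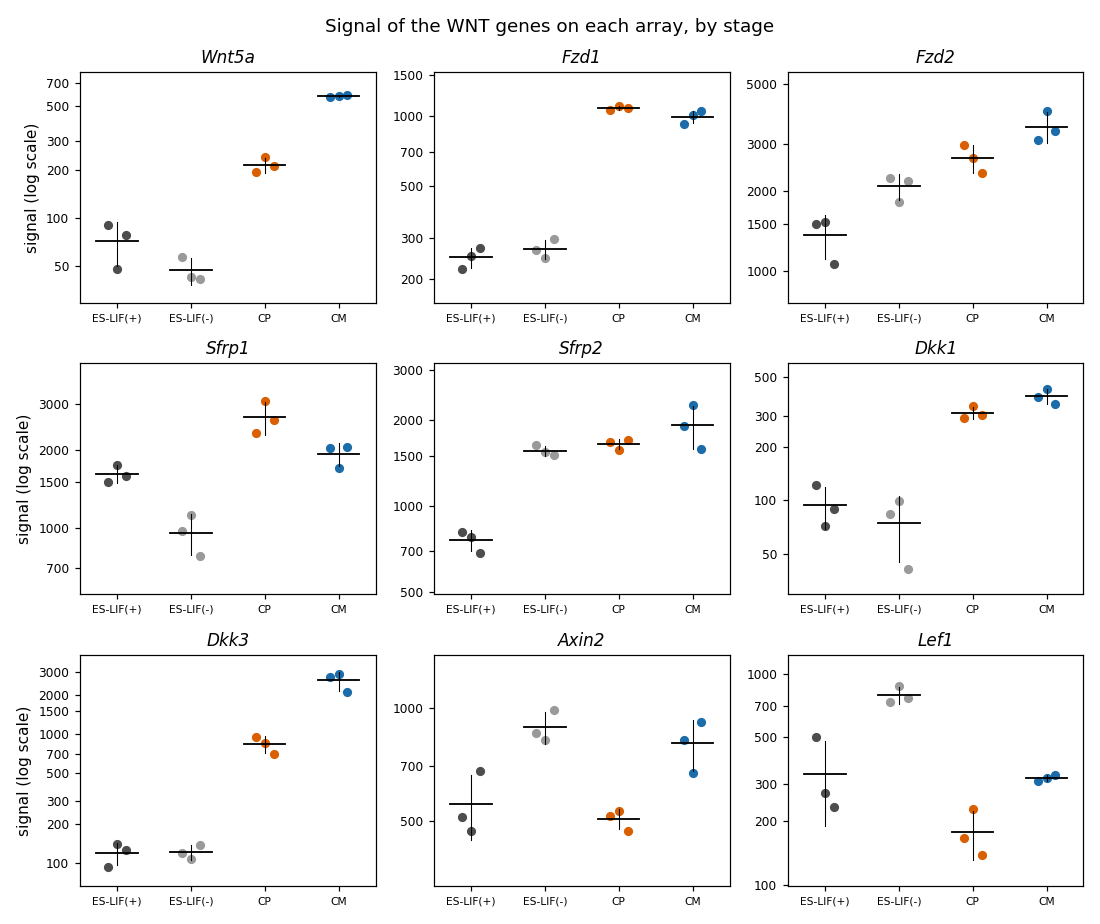
Signal of the representative probe set of each WNT gene on each of the 12 arrays (log scale), by stage from ES-LIF(+) to CM, where points are arrays, horizontal lines the means and vertical lines the SD (n = 3). Wnt5a and Dkk3 step up in CP and again in CM, Fzd1 and Dkk1 step up in CP, and Axin2 and Lef1 are highest in ES-LIF(-).

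Wnt5a, the ligand, had signals of 90.3, 47.8 and 77.4 in ES-LIF(+), 56.8, 42.5 and 41 in ES-LIF(-), 192.8, 239.4 and 209 in CP, and 569.9, 576.9 and 584 in CM. Both ES stages lay below the array median on every array, CP lay above both ES stages, and CM lay above CP on every array. Wnt5a rose by 1.41 ± 0.23 in CP against ES-LIF(+) (SE, adjusted p = 0.000139), by 2.79 ± 0.23 in CM against ES-LIF(+) (adjusted p = 6.3e-08), and by 1.37 ± 0.23 in CM against CP (adjusted p = 0.000326). LIF withdrawal did not move it past the threshold (-0.46 ± 0.23, adjusted p = 0.239). Because the ES signals were low, the size depends on the added constant: the CM difference was 3.04 with a constant of 1 and 2.25 with 64. Of its 4 probe sets 3 were tested, and all 3 were called higher in CP and in CM against ES-LIF(+), while the difference between CM and CP was 1.07 (adjusted p = 0.0686) and 0.96 (adjusted p = 0.0878) by the other two.

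Fzd1 and Fzd2, the Frizzled receptors, rose in both CP and CM against ES-LIF(+). Fzd1 had 222.3, 251.6 and 271.3 in ES-LIF(+), 265.9, 245.9 and 296.6 in ES-LIF(-), 1059, 1101 and 1085 in CP, and 924.5, 1005 and 1046 in CM. The ES stages thus formed a low level and CP and CM a high level, with a gap between them. The CP difference was 2.06 ± 0.12 (adjusted p = 2.95e-09) and the CM difference 1.93 ± 0.12 (adjusted p = 1.98e-09), and CM and CP differed by -0.12 ± 0.12 (adjusted p = 0.46). Its second probe set gave 2.56 in CP and 2.65 in CM, both called.

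Fzd2 rose over ES-LIF(+) in ES-LIF(-), CP and CM by its brightest probe set. Its signals were 1500, 1530 and 1064 in ES-LIF(+), 2228, 1816 and 2180 in ES-LIF(-), 2962, 2647 and 2320 in CP, and 3087, 3977 and 3350 in CM, and neighbouring stages did not overlap. Against ES-LIF(+) the difference was 0.61 ± 0.14 in ES-LIF(-) (adjusted p = 0.0101), 0.96 ± 0.14 in CP (adjusted p = 5.43e-05) and 1.35 ± 0.14 in CM (adjusted p = 7.97e-07). In CP it differed from ES-LIF(-) by 0.35 ± 0.14 (adjusted p = 0.0547), and in CM from CP by 0.39 ± 0.14 (adjusted p = 0.0457), a size under the 1.5-fold threshold. The call after LIF withdrawal is small: without ES-LIF(+) replicate 3, the lowest array, the difference was 0.44, without ES-LIF(-) replicate 1 it was 0.56 and without ES-LIF(-) replicate 3 it was 0.57, each under the fold threshold. CM exceeded ES-LIF(-) by 0.74 ± 0.14 (adjusted p = 0.00033), or by 0.43 with arrays centred on their medians. All 3 probe sets of Fzd2 were called higher in CP and in CM against ES-LIF(+), but they differed on the order of the later stages. The third had 922.7, 996.1 and 903.1 in CM, against 846.5, 1127.5 and 1092.8 in CP, and its CM range overlapped ES-LIF(-) as well. By it CM differed from CP by -0.11 (adjusted p = 0.578) and from ES-LIF(-) by 0.06 (adjusted p = 0.698). The second gave 0.56 in CM against ES-LIF(-) (adjusted p = 2.86e-05) and 0.58 in ES-LIF(-) against ES-LIF(+) (adjusted p = 0.000313), both under the fold threshold.

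**Figure D2:**
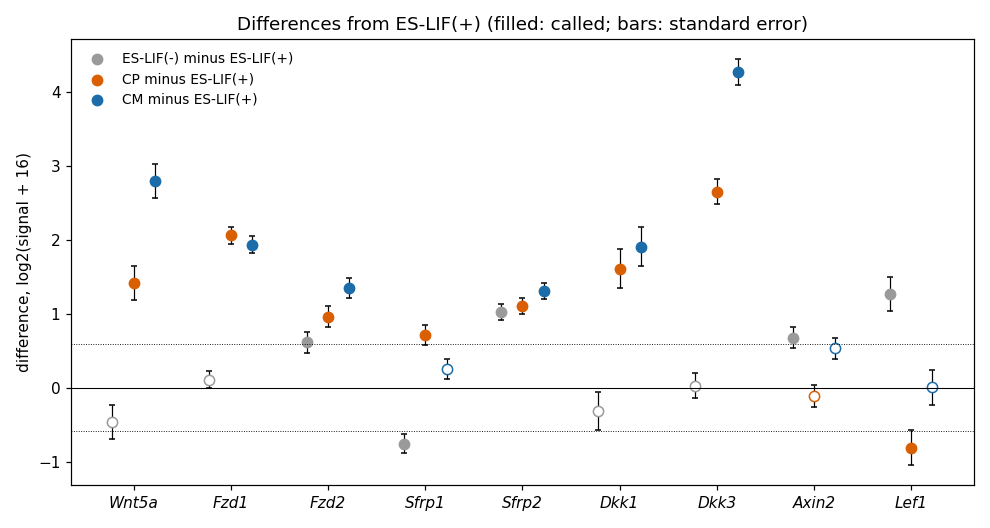
Difference of each WNT gene from ES-LIF(+) on the log2(signal + 16) scale in ES-LIF(-), CP and CM, with filled points called, open points not called, bars the standard error and dotted lines the 1.5-fold limit. Dkk3 in CM reaches 4.26, whereas Sfrp1 and Lef1 lie on opposite sides of 0 in ES-LIF(-) and CP.

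Dkk3 changed most among the 9 in CM. It encodes a secreted Dickkopf-family protein, whose effect on WNT signals varies with the cell. It had 93.5, 139.8 and 126.4 in ES-LIF(+), 119.9, 107 and 138.1 in ES-LIF(-), 946.9, 846.4 and 704 in CP, and 2757, 2918 and 2101 in CM. The ES stages overlapped, every CP array was brighter than every ES array, and every CM array brighter than every CP array. It rose by 2.65 ± 0.17 in CP (adjusted p = 1.62e-08), by 4.26 ± 0.17 in CM (adjusted p = 3.49e-11) and by 1.62 ± 0.17 in CM against CP (adjusted p = 5.45e-06). A second probe set gave 2.97 in CP and 4.43 in CM, both called.

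Dkk1, which binds the Lrp coreceptors and blocks canonical signalling, had 121.9, 71.5 and 89 in ES-LIF(+), 84, 99.8 and 41.1 in ES-LIF(-), 294.7, 344.2 and 305.9 in CP, and 387.4, 428 and 353.6 in CM. CP and CM lay clear of both ES stages, where 5 of the 6 arrays were below their own median. The difference from ES-LIF(+) was 1.61 ± 0.26 in CP (adjusted p = 0.000133) and 1.90 ± 0.26 in CM (adjusted p = 1.42e-05). CM and CP differed by 0.29 ± 0.26 (adjusted p = 0.441). Its other probe set was below the array median on every array and was not tested. There CP (43.8 to 70.2) overlapped ES-LIF(+) (5.3 to 71.3), so the calls rest on the brighter probe set. The upstream stretch printed above for Dkk1 holds its 2 matches to the TCF/LEF word.

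Sfrp2, a secreted frizzled-related protein, rose when LIF was withdrawn. It had 813.7, 779.7 and 688.9 in ES-LIF(+), 1634, 1550 and 1506 in ES-LIF(-), 1674, 1576 and 1702 in CP, and 1901, 2257 and 1590 in CM. Every ES-LIF(+) array lay below all the other arrays, while the ranges of the other 3 stages overlapped. The rise over ES-LIF(+) was 1.03 ± 0.11 in ES-LIF(-) (adjusted p = 2.62e-05), 1.10 ± 0.11 in CP (adjusted p = 1.44e-06) and 1.30 ± 0.11 in CM (adjusted p = 8.84e-08), whereas CP and ES-LIF(-) differed by 0.08 ± 0.11 (adjusted p = 0.596).

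Sfrp1, its relative, went down at LIF withdrawal and up in CP. Its signals were 1504, 1757 and 1586 in ES-LIF(+), 977.6, 1120 and 778.9 in ES-LIF(-), 2324, 3082 and 2615 in CP, and 2034, 1711 and 2047 in CM. Every ES-LIF(-) array was below every array of the other stages, and every CP array above them. The difference from ES-LIF(+) was -0.76 ± 0.13 in ES-LIF(-) (adjusted p = 0.00153), 0.71 ± 0.13 in CP (adjusted p = 0.000399) and 0.25 ± 0.13 in CM (adjusted p = 0.111). CP exceeded ES-LIF(-) by 1.47 ± 0.13 (adjusted p = 4.01e-07). With arrays centred on their medians the CP difference from ES-LIF(+) was 0.43 (adjusted p = 0.015), under the fold threshold.

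The 5 probe sets of Sfrp1, lettered A (the one above) to E, did not give 1 picture of the CM stage. All 5 were called higher in CP against ES-LIF(+), by 0.71 to 1.56, and 4 of the 5 were called lower in ES-LIF(-), probe set D differing by -0.42 (adjusted p = 0.0504). In CM against ES-LIF(+), 3 of the 5 were called higher, and B stood out with 2.45 (adjusted p = 8.03e-09), with signals of 3128, 3267 and 2657 in CM against 632.3, 530 and 461.1 in ES-LIF(+). Between CM and CP, B was 1.36 higher in CM (adjusted p = 1.95e-05), whereas C was 0.79 lower (-0.79, adjusted p = 0.000201). Which transcripts each probe set reads was not tested, and the order of CM and CP was not settled for Sfrp1.

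**Figure D3:**
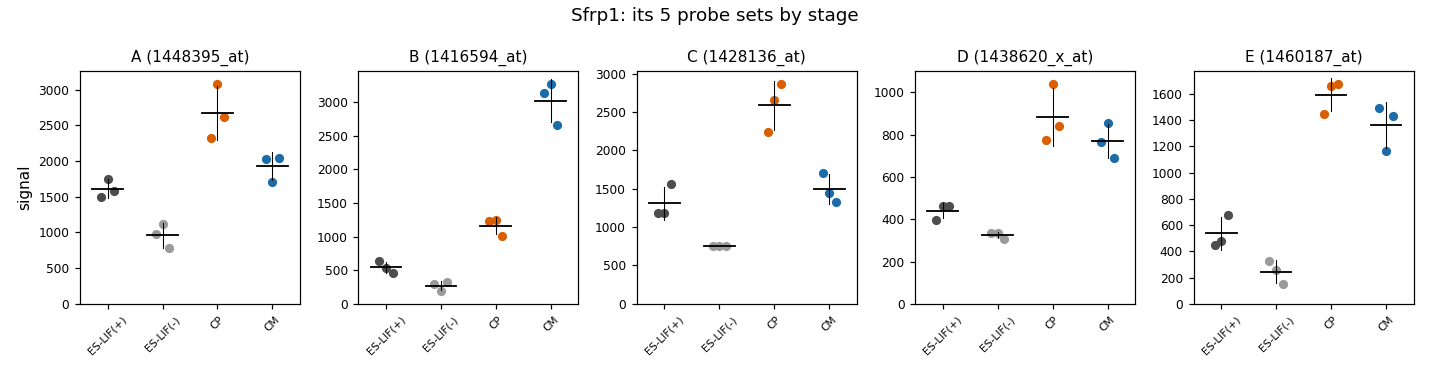
Signal of the 5 probe sets of Sfrp1 on each array, by stage (panels A to E, linear axes from 0, each on its own scale), with horizontal lines for means and vertical lines for SD (n = 3). Every panel is lowest in ES-LIF(-), and B alone is highest in CM.

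Axin2, a scaffold of the destruction complex and a widely used read-out of canonical signalling, had 513, 471.2 and 677.2 in ES-LIF(+), 857, 820 and 987.2 in ES-LIF(-), 516.4, 533.1 and 471.5 in CP, and 820.7, 671.5 and 918.9 in CM. Every ES-LIF(-) array lay above every ES-LIF(+) and CP array, whereas CM overlapped ES-LIF(-). It rose after LIF withdrawal by 0.68 ± 0.15 (adjusted p = 0.00651), was lower in CP than in ES-LIF(-) by 0.79 (-0.79 ± 0.15, adjusted p = 0.000385) and in CM stood above CP by 0.64 ± 0.15 (adjusted p = 0.00343). Against ES-LIF(+), CP differed by -0.11 ± 0.15 (adjusted p = 0.569), and CM by 0.53 ± 0.15 (adjusted p = 0.00544), under the fold threshold, which it passed without CM replicate 2 (0.65) or ES-LIF(+) replicate 3 (0.68). Its second probe set was dim, below the array median on all 6 ES arrays, and gave another picture, with -0.13 in ES-LIF(-) (adjusted p = 0.895) and 1.54 in CM (adjusted p = 0.00578). The call in ES-LIF(-) was lost without ES-LIF(+) replicate 2 (0.57, adjusted p = 0.0328) and that between CM and CP without CM replicate 3 (0.54), both by the fold threshold.

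Lef1, a TCF/LEF factor that carries beta-catenin to DNA, went the opposite way to Sfrp1. Its signals were 504.1, 271.8 and 234.6 in ES-LIF(+), 732.4, 877.5 and 765.3 in ES-LIF(-), 166.7, 229.6 and 138.7 in CP, and 309.3, 319.2 and 331 in CM. ES-LIF(-) was above all the other stages and CP below them, while CM lay within the range of ES-LIF(+). Lef1 rose by 1.27 ± 0.23 in ES-LIF(-) (adjusted p = 0.00235), fell in CP against ES-LIF(+) (-0.81 ± 0.23, adjusted p = 0.0103), and was -2.08 ± 0.23 in CP against ES-LIF(-) (adjusted p = 3.88e-06). CM differed from ES-LIF(+) by 0.004 ± 0.23 (adjusted p = 0.989), was above CP by 0.82 ± 0.23 (adjusted p = 0.0147) and below ES-LIF(-) by 1.26 (-1.26 ± 0.23, adjusted p = 0.00025). The fall against ES-LIF(+) rests on 1 array and 1 probe set: without ES-LIF(+) replicate 1 it was -0.49 (adjusted p = 0.0502), and the second probe set gave 0.21 in CP (adjusted p = 0.625) although it also rose in ES-LIF(-), by 1.09 (adjusted p = 0.0382). The difference between CM and CP was 0.66 (adjusted p = 0.0675) without CP replicate 3.

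Counted over the 9 members, 4 rose and 1 fell in ES-LIF(-) against ES-LIF(+), beside 4.0% and 3.68% of all genes. Fzd2, Sfrp2, Axin2 and Lef1 were the 4 and Sfrp1 the 1. In CM against CP, 4 were higher (Wnt5a, Dkk3, Axin2 and Lef1) and 0 lower, beside 9.04% and 10.4%. In CP against ES-LIF(-), 5 were higher and 2 lower, beside 18.2% and 14.5%, and in CM against ES-LIF(-), 6 were higher and 1 lower, beside 24.2% and 24.4%. Axin2 and Lef1 were the 2 lower in CP than in ES-LIF(-), and Lef1 the 1 lower in CM. The second probe set of Axin2 gave 1.02 in CP against ES-LIF(-) (adjusted p = 0.0613). That of Lef1 gave -0.89 in CP (adjusted p = 0.0326, called) and -0.35 in CM (adjusted p = 0.367) against ES-LIF(-).

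For each member, the genes of the table most like it in pattern were found by Pearson correlation of log2 values. The 12 arrays fall into 4 stages, so the points are not independent, and all genes share the same arrays and scaling. The 2 nearest genes were Hcfc1r1 (r = 0.993) and Prkar1a (0.991) for Wnt5a, Hand2 and Prnp (0.997 each) for Fzd1, and Scand1 and Fgfrl1 (0.967 each) for Fzd2. Hand2 is a transcription factor of heart and limb mesenchyme, and Prnp the prion protein. Among the antagonists they were Osr1 (0.996) and Cald1 (0.994) for Dkk3, Fam114a1 (0.986) and Adgra2 (0.984) for Dkk1, Glrx2 (0.982) and Has2 (0.971) for Sfrp2, and Btg1 (0.952) and Adgre5 (0.95) for Sfrp1. Osr1 is a transcription factor of intermediate mesoderm, and Has2 makes hyaluronan. For Lef1 they were Pm20d2 (0.979) and Foxh1 (0.957), a partner of Smad proteins in Nodal signalling, and for Axin2 Tmem88 (0.937), which in zebrafish can damp WNT signals, and Ppt2 (0.919).

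To place the members in their pathway, 112 further WNT genes in 10 roles were read, of which 110 were on the array and 91 tested. In CP against ES-LIF(+), 27 of the 91 rose (29.7%) and 8 fell (8.8%), beside 18.7% and 13.3% of all genes, with a median difference of 0.22, and in CM against ES-LIF(+), 31 rose (34.1%) and 13 fell (14.3%), beside 25.7% and 23.9%, with a median of 0.21. After LIF withdrawal 4 rose (4.4%) and 5 fell (5.5%), beside 4.0% and 3.68% of all genes, and in CM against CP 9 rose (9.9%) and 12 fell (13.2%), beside 9.04% and 10.4%, so both were near the share of all genes. Some genes that rose in CP and CM were below the array median on most or all ES arrays. Those were tested only through their CP and CM signals, so these shares are no test of the pathway as a set.

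Of 11 further secreted antagonists 6 were tested. Of these 6, 5 rose in CP and 5 in CM against ES-LIF(+) (83.3% in each), beside 18.7% and 25.7% of all genes. Dkk2, Frzb and Cer1 were below the array median on every ES array, so they were tested only through their CP and CM signals. Antagonists dim on most arrays were not tested. The share of 83.3% was therefore shaped by the filter and is no test of the antagonists as a set. The sixth, Sfrp4, passed in neither stage, with 0.02 in CP (adjusted p = 0.941) and -0.09 in CM (adjusted p = 0.631). Dkk2, a Dickkopf protein, had 821.1, 670.3 and 1080 in CP, against 2.2, 3.2 and 2.4 in ES-LIF(+), and rose by 5.53 ± 0.31 (adjusted p = 2.95e-09), a size that depends on the added constant because ES-LIF(+) was so dim. In CM it was lower than in CP by 2.09 (-2.09 ± 0.31, adjusted p = 0.000115). Frzb, a further secreted frizzled-related protein, rose by 4.38 ± 0.34 in CP and 3.52 ± 0.34 in CM, against signals of 14.7 to 53.9 in ES-LIF(+). Its sizes likewise depend on the added constant. Cer1, which binds Nodal and BMP ligands in mouse and WNTs in frog, was lower in CM than in CP (-1.04 ± 0.36, adjusted p = 0.0357), and Igfbp4 and Sfrp5 completed the 5. Sfrp4, Igfbp4 and Sfrp5 are named after their values were seen.

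Of 11 further ligands tested, 2 rose in CP (18.2%) and 3 in CM (27.3%), near the 18.7% and 25.7% of all genes. Wnt9a reached 562 ± 96 in CP, against 86.5 ± 15.9 in ES-LIF(+) (SD, n = 3, log2 difference 2.50). It was below the array median on most ES arrays, so it was tested only through its CP and CM signals. Wnt11, a ligand of non-canonical signalling in the developing heart, reached 424 ± 35 in CM, against 136 ± 18 in ES-LIF(+) (1.54). Wls, the carrier that takes WNT ligands to the cell surface, rose by 2.69 in CP and 3.11 in CM. The glypican Gpc3 was 1.75 higher in CM than in CP. Notum, the enzyme that strips the lipid from WNT ligands, was low in ES-LIF(-) (390 ± 99, against 1296 ± 104 in ES-LIF(+)) and in CM (356 ± 17), and had 1081 ± 106 in CP.

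Among receptors, 4 of 14 rose (28.6%) and 1 fell (7.1%) in CP, and the counts were the same in CM. Over all genes 18.7% rose and 13.3% fell in CP, and 25.7% rose and 23.9% fell in CM, so the share of receptors that rose in CM was near that of all genes. Fzd6 rose by 0.91 in CP and 1.95 in CM. Fzd5 went the other way, with -1.25 in ES-LIF(-) and -1.64 in CM, and Fzd9 was -1.49 in CP. The Fzd9 signals in CP were low (18.2 to 55.2), so that size depends on the added constant. Ror1, a receptor kinase for Wnt5a, rose by 1.03 in ES-LIF(-). Rspo3, an R-spondin that strengthens WNT signals, rose by 1.59 in CP and 2.16 in CM. It was below the array median on every ES array, so it was tested only through its CP and CM signals.

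Of 7 genes that relay the signal inside the cell, 0 were called in CP, and in CM Frat2, a Gsk3-binding protein, fell (-2.87 ± 0.37, adjusted p = 7.29e-06) with Dvl2 (-1.10 ± 0.11). Frat2 was dim in CM (27.8 to 29.2), so the size of its fall depends on the added constant. Of 9 destruction complex genes 2 rose in each stage (22.2%, beside 18.7% of all genes in CP and 25.7% in CM), among them Gsk3b (0.76 in CP and 0.95 in CM). Prickle2 of the planar polarity branch rose by 2.26 in CP and 2.43 in CM. Prickle2 and Apc2, the other destruction complex gene that rose, were below the array median on most ES arrays. Both were therefore tested only through their CP and CM signals.

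Of 10 nuclear partners tested, 2 rose (20%) and 3 fell (30%) in CP, beside 18.7% and 13.3% of all genes. In CM 1 rose (10%) and 4 fell (40%), beside 25.7% and 23.9%. Tcf7l1, a TCF that acts as a repressor in mouse ES cells, had -0.75 ± 0.12 in CP (adjusted p = 9.63e-05) and -1.53 ± 0.12 in CM (adjusted p = 2.88e-08), and Tle4, a corepressor, had -1.31 ± 0.09 in CP and -2.49 ± 0.09 in CM. Bcl9, a coactivator, was 1.12 higher in ES-LIF(-) than in ES-LIF(+).

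Of 12 target genes tested, 4 rose and 4 fell in CP (33.3% each), beside 18.7% and 13.3% of all genes. In CM 6 rose (50%) and 1 fell (8.3%), beside 25.7% and 23.9%. In ES-LIF(-), where Axin2 and Lef1 were called higher, 0 of these 12 rose and 1 fell (8.3%), beside 4.0% and 3.68% of all genes. Ccn4 rose by 4.32 in CP and 4.74 in CM and Cd44 by 4.07 in CP and 4.49 in CM, and both are also made by mesenchymal cells, whose markers were high in these stages and whose part was not tested. Id2 fell in both stages, and Cdx2, a caudal homeobox factor, was -1.18 in CP and 0.99 in CM against ES-LIF(+), with CM 2.17 ± 0.39 above CP (adjusted p = 0.000581). The Cdx2 signals in CP (19.3 to 60.2) were below the array median and overlapped those in ES-LIF(+) (49.1 to 146.9). The sizes of its differences from CP therefore depend on the added constant.

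**Figure D4:**
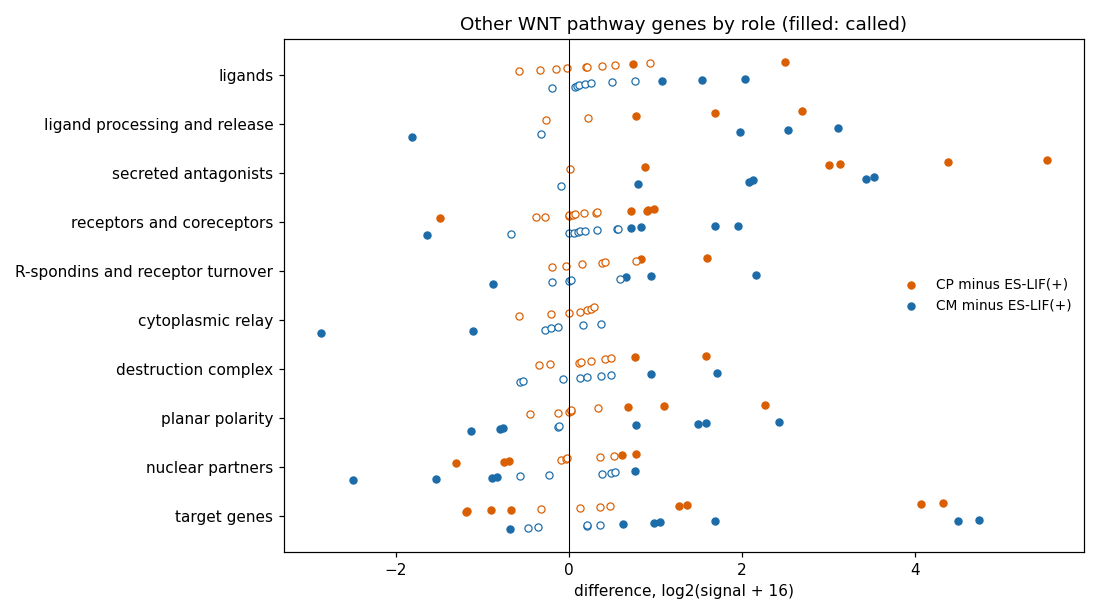
Difference from ES-LIF(+) of 91 further WNT pathway genes in CP and CM (log2(signal + 16) scale), one point per gene, arranged by role, with filled points called and open points not called. The secreted antagonists reach 5.53 in CP, whereas the nuclear partners extend to -2.49 in CM.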

How the data were processed

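RNA from 12 samples was hybridised to Affymetrix mouse arrays, 1 sample per array. The authors deposited MAS5 signal intensity values on a linear scale, 1 per probe set, scaled to a common trimmed mean; the intensity of 45101 probe sets was read, 64 control probe sets were left out, and detection calls were not used. The number of arrays limits the precision. All columns matched a sample. Signals were analysed as log2(signal + 16), and 26083 probe sets whose signal exceeded the array median on at least 3 of the 12 arrays were tested with limma 3.58.1 in R 4.3.3, with an intensity trend, over all 4 stages and 6 comparisons. A call needed adjusted p below 0.05 and more than 1.5-fold. The platform annotation gave 1 gene for 34945 probe sets, several for 932 and none for 9160. Members, pathway lists and marker lists were chosen with earlier results of these data known. Named genes were the members, up to 2 largest called rises and falls per role, and the genes most like each member. The fit was tested on simulated data. The study's own test was a one-way analysis of variance with the same fold limit, run here as an alternative with other scalings, added constants, filters, probe choices and each array left out.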

Additional observations from a re-analysis of the deposited data

Results flagged for a closer look

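Lef1 and Sfrp1 were each called in opposite directions in ES-LIF(-) and in CP, both against ES-LIF(+), and the difference between CP and ES-LIF(-) was itself called. For Lef1 that difference was -2.08 (adjusted p = 3.88e-06), lower in 3 of 3 CP arrays than in any ES-LIF(-) array. For Sfrp1 it was 1.47 (adjusted p = 4.01e-07), higher in 3 of 3 CP arrays. The CP calls against ES-LIF(+) were less firm. For Lef1 the call was lost without ES-LIF(+) replicate 1 (-0.49, adjusted p = 0.0502). Its second probe set gave 0.21 there (adjusted p = 0.625). For Sfrp1 every probe set was called higher in CP, but with median centring the difference was 0.43, under the fold threshold.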

How the results depend on the processing

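Over 26 alternatives to 54 differences of the members, 1336 of 1386 values kept their direction and call, 23 lost the call, 8 gained one and 19 changed sign. With a filter on all 12 arrays only 6 members were tested, and the called members numbered 5 for CP against ES-LIF(+), 3 for CM against ES-LIF(+), 2 for CM against CP, 4 for CP against ES-LIF(-) and 4 for CM against ES-LIF(-). With a 2-fold threshold they numbered 5 for CP against ES-LIF(+), 2 for ES-LIF(-) against ES-LIF(+) and 2 for CM against CP. Leaving out each array in turn gave 7 to 8 called members for CP and 6 to 7 for CM against ES-LIF(+). Signs changed only in differences that had not been called, except Axin2 between CP and ES-LIF(-), which was 0.12 as a mean over probe sets. As a mean over probe sets, ES-LIF(-) differed from ES-LIF(+) by 0.11 for Wnt5a, 0.10 for Dkk1 and -0.25 for Dkk3, and Axin2 gave 0.39 in CP against ES-LIF(+). In CM against ES-LIF(-) Axin2 gave 0.76 (adjusted p = 0.0052), past both thresholds and opposite to the uncalled -0.15 of its brighter probe set. With the probe set chosen by mean signal, Dkk3 gave -0.53 in ES-LIF(-). With median centring, Sfrp1 and Lef1 in CM against ES-LIF(+) gave -0.066 and -0.315, and Sfrp2 gave -0.19 in CP and -0.027 in CM against ES-LIF(-). Lef1 in CM against ES-LIF(+) was -0.32 with quantile normalization and 0.00 (-0.004) with a constant of 64. Over the arrays left out, Lef1 in CM against ES-LIF(+) ranged from -0.20 to 0.32, Axin2 in CP from -0.21 to 0.041 and Dkk3 in ES-LIF(-) from -0.12 to 0.14. As a mean over probe sets the calls of Wnt5a between CM and CP (0.615, adjusted p = 0.0693), Fzd2 in CM against ES-LIF(-) (0.45), Axin2 in ES-LIF(-) (0.27) and Lef1 in CP (-0.30) against ES-LIF(+) were lost, and Sfrp1 (1.003) and Axin2 (1.04) gained a call in CM against ES-LIF(+). Causes were not tested. No detection calls were used, so signals near the floor, as of Wnt5a and Dkk1 in the ES stages, limit the size of a fold.

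The replicate numbers did not pair the arrays: deviations of same-numbered arrays correlated at -0.047 to 0.095, and 3 of 12 arrays correlated best with an array of their own number. With the replicate block, the called members were 8, 6, 5, 4, 7 and 7 over the 6 comparisons, the same counts as without it, and the genes called moved by at most 15.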
